A study of Mus musculus with 16 samples.

Results

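Splicing removes introns from pre-mRNA in the spliceosome, which is built from small nuclear ribonucleoproteins (snRNPs), each made of a small nuclear RNA and its proteins. A ring of Sm proteins sits on the U1, U2, U4 and U5 RNAs, and a related ring of LSm proteins holds the end of the U6 RNA. The SF3a and SF3b complexes let the U2 snRNP grip the branch site, and the Prpf proteins join the U4/U6 and U5 particles into the tri-snRNP and drive its rearrangement. In neural stem cells, as in other dividing cells, this machinery is expressed at all times.

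The genes described here are the core snRNP, LSm, Sf3 and Prpf genes, 53 of the 30386 genes measured. The family was chosen with earlier results of these data known, and its members by symbol, as names that start with Snrp, Snrnp, Lsm, Sf3a, Sf3b or Prpf and end in the letters or digits of a family member, and all 53 had a row. Each was placed in 1 of 13 particles or groups from textbook knowledge, such as the Sm core, SF3b or the U6 LSm ring.

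RNA was sequenced from neural stem/progenitor cell (NSPC) lines derived from the subventricular zone of mice of 3 months of age, which were C57BL/6J/Babr animals per the study's methods. The lines had been transfected with plasmids for constitutive expression of *GFP* (*GFP*-NSPCs, 8 samples) or of mouse *Dbx2* (*Dbx2*-NSPCs, 8 samples), a homeobox transcription factor. Both were selected and kept in puromycin as bulk cultures, and RNA was taken after 4 to 6 days of non-adherent growth. The study used 2 pairs of lines with 4 independent experiments each, but the labels give only the transgene and a number from 1 to 8, so samples were not assigned to lines and a p-value measures the spread between these samples. Nor do the labels say that samples of equal number are pairs, so comparisons by number below are descriptions. The promoter that drives the transgenes is not given in the sources used here.

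Libraries were made with the QuantSeq kit, which reads the end of each polyadenylated transcript, so the level of a gene is its share of reads in CPM, which scales the reads of each library to the same total. The *GFP*-NSPC libraries held 1803928 to 3258885 counted reads and the *Dbx2*-NSPC libraries 2214008 to 3293285. A floor of 3 reads lay at 0.911 to 1.66 CPM, and it accounts for counting error alone, because the reads carry no molecular identifiers and may repeat a molecule. The mean level of the members over all 16 samples ran from 10.7 CPM to 837 CPM, so all lay above that floor. In bulk RNA, fewer cells that express a gene and less of its RNA per cell cannot be told apart.

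The labelled cell type was checked with marker lists. All 8 neural stem/progenitor markers were tested, with *Vim* the most abundant, and their summed level was 5546 to 7117 CPM in *GFP*-NSPCs and 4313 to 5939 CPM in *Dbx2*-NSPCs. The 5 microglia markers summed to at most 2.45 CPM in any sample, with *P2ry12* the most abundant and *Aif1* at 0 in every sample. The 4 endothelial markers summed to at most 8.08 CPM, with *Kdr* the most abundant and *Cdh5* and *Cldn5* at 0 throughout. Among the 6 oligodendrocyte markers *Mog* was at 0 in every sample, and the list summed to at most 14.7 CPM.

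*Dbx2* itself (ENSMUSG00000045608) was at 120 ± 35.6 CPM in *GFP*-NSPC samples 1 to 4 and at 173 ± 41.4 CPM in *Dbx2*-NSPC samples 1 to 4 (SD, n = 4 each). In samples 5 to 8 it was at 34.0 ± 3.96 CPM and 136 ± 16.9 CPM (SD, n = 4 each). The fold change was thus 0.54 on the log2 scale in samples 1 to 4 (limma adjusted p = 0.0891) and 1.99 in samples 5 to 8 (limma adjusted p = 5.67e-08), and it differed between these sets of samples by 1.45 (limma interaction term, adjusted p = 0.000104). Whether transgene transcripts were counted under this gene is not given in the sources used here. *GFP*-NSPC sample 1 stood apart from the other *GFP*-NSPC samples in the genes described below, so the main counts are also given without it.

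Of the 53 members, 12 were lower in *Dbx2*-NSPCs and 0 were higher (limma on log2(CPM + 0.5), Benjamini-Hochberg adjusted p under 0.05). That is 22.6% of the members, beside 7.78% of the 12533 tested genes called lower and 8.03% called higher. The tested genes were not matched to the members in level. The mean level of every member was at least 10.7 CPM, and the tested genes include lower ones, and the part of level in this contrast was not tested. Those named here were *Snrpf* and *Snrpb* of the Sm core, *Sf3a2* and *Sf3a3* of SF3a, *Sf3b4* and *Sf3b5* of SF3b, *Lsm4* and *Lsm7* of the U6 ring, *Snrpb2* of U2, *Snrnp40* of U5 and *Lsm14a* of the cytoplasmic LSm genes. All 53 members passed the filter on low values (more than 1 CPM in at least 4 samples), so the counts cover every member. At an unadjusted p under 0.05, 17 members were lower and 0 higher, beside 15.1% of all tested genes lower.

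The log2 fold change, *Dbx2*-NSPCs minus *GFP*-NSPCs, was negative for 47 of the 53 members (88.7%), beside 52.7% of all tested genes. Its median was -0.15 over the members and -0.02 over all tested genes, and the members ranged from -1.13 (*Snrpf*) to 0.31 (*Lsm10*). Most members thus lay slightly below zero and a few lay far below. For 5 members (*Snrpf*, *Snrpb*, *Sf3a2*, *Lsm4* and *Snrnp40*) every *Dbx2*-NSPC sample was below every *GFP*-NSPC sample, which held for 1.81% of all tested genes in that direction. Without *GFP*-NSPC sample 1, 13 members were lower, the same 12 and *Snrpg*, beside 9.00% of all tested genes. edgeR on whole reads recovered from the CPM called 11 members lower, all among the 12, with *Snrpb2* lost, beside 7.01% of all tested genes, and DESeq2 called the same 12, beside 8.11%.

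**Figure D1:**
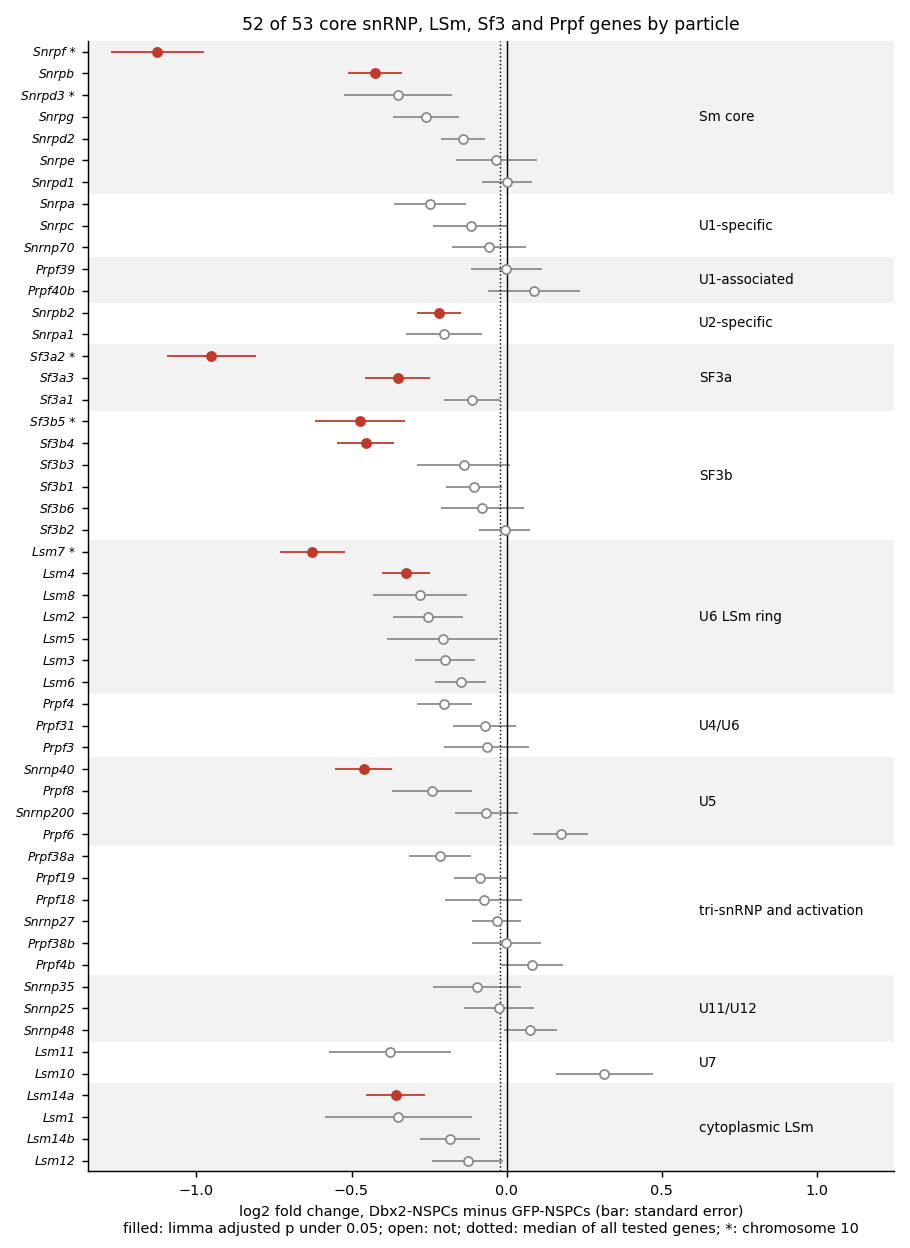
Log2 fold change of 52 of the 53 members (x axis, log2 units, *Dbx2*-NSPCs minus *GFP*-NSPCs, with its standard error), grouped by particle, with genes past the limma threshold filled and genes on chromosome 10 starred. The points run from -1.13 to 0.31, 46 of 52 lie below 0, and the 11 filled points all do.

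Promoter sequences were available for 43 of the 53 members in the RefSeq table (GRCm38.p6), each from 250 bases before to 50 after the start. The 250 bases before the start are shown for the 3 members that fell most and for *Sf3a3*, the 1 called member with an ETS site in its window, with motif matches in capitals (CCAAT or its complement in *Snrpf*, the complement of CCGGAAGT in *Sf3a3*). *Snrpf* is read from the reverse strand of chr10:93589659-93589908, *Sf3a2* from the forward strand of chr10:80798485-80798734, *Lsm7* from the reverse strand of chr10:80855210-80855459 and *Sf3a3* from the forward strand of chr4:124714611-124714860.
Snrpf: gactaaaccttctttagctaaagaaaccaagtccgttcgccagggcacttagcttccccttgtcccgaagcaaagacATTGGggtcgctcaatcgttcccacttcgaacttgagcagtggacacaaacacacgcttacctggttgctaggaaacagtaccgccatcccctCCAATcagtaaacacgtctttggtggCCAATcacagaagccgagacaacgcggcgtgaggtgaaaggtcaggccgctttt
Sf3a2: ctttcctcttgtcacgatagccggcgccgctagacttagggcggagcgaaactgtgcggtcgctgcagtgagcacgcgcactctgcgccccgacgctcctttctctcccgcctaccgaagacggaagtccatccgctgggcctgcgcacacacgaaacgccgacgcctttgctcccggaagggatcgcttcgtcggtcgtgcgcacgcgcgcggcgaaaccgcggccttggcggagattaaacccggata
Lsm7: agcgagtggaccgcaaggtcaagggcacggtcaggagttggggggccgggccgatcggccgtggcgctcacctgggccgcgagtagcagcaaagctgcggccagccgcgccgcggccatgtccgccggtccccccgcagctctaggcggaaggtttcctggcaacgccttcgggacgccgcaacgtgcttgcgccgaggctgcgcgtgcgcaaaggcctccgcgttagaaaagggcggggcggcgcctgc
Sf3a3: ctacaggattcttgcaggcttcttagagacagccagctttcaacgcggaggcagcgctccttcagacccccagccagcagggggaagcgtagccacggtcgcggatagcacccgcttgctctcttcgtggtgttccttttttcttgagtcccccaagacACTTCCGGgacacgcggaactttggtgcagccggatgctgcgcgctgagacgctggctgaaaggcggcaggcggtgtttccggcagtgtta
The windows of these genes held no TATA box (TATAAA), and their GC content ran from 54.0% (*Snrpf*) to 70.3% (*Lsm7*), beside a median of 61.3% for the windows of all tested genes.

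Over the whole windows, on either strand, the ETS site CCGGAAGT was in 18.6% of the members' promoters (8 of 43) beside 9.22% of those of all tested genes and 4.31% of the whole table. The NRF1 site GCATGCGC was in 9.3% (4 of 43) beside 6.25% and 3.05%, and the CCAAT box (CCAAT) in 39.5% (17 of 43) beside 43.5% and 41.1%. The E-box CACGTG was in 9.3% (4 of 43) beside 11.9% and 8.09%, and TATAAA in 6.98% (3 of 43) beside 8.21% and 15.7%. The E2F site TTTGGCGC was in 2.33% (1 of 43) beside 1.14% and 0.585%, and its other form TTTCCCGC in 0 of 43 beside 2.45% and 1.24%. None of these motifs holds another. Of the 6 called members with a window, *Sf3a3* held the ETS site and *Snrpf* the CCAAT box, in 3 copies, and the others (*Sf3a2*, *Lsm7*, *Lsm14a* and *Snrpb2*) held none of the motifs. The members with an ETS site were *Lsm5*, *Prpf4b*, *Prpf6*, *Sf3a1*, *Sf3a3*, *Sf3b2*, *Snrnp27* and *Snrpe*, of which *Sf3a3* was called. A match of letters is a description of the sequence and not a site of binding.

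Of the Sm core, the ring of proteins loaded on the spliceosomal snRNAs, 2 of 7 members fell and the median log2 fold change was -0.26. *Snrpf*, which encodes SmF (chromosome 10, 93583029 to 93589706), ran from 49.2 CPM through a median of 87.8 to 94.8 CPM in *GFP*-NSPCs and from 27.4 CPM through 35.2 to 48.5 CPM in *Dbx2*-NSPCs. The lowest *GFP*-NSPC value was that of sample 1, and still no *Dbx2*-NSPC sample reached it. The log2 fold change was -1.13 (standard error 0.150, limma adjusted p = 3.51e-05), the largest fall of any member, to 45.8% of the level in *GFP*-NSPCs.

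*Snrpb* (chromosome 2), which encodes the SmB proteins, ran from 132 CPM through 151 to 168 CPM in *GFP*-NSPCs and from 88.3 CPM through 117 to 130 CPM in *Dbx2*-NSPCs. The groups did not overlap, and the log2 fold change was -0.43 (standard error 0.0867, limma adjusted p = 0.00216). The other 5 Sm genes did not pass the test. *Snrpg*, for SmG, was at -0.26 (limma adjusted p = 0.108, 0.0371 with the replicate block and 0.0724 with the sample set as a covariate). For *Snrpd3* the value was -0.35 (adjusted p = 0.190 in limma), for *Snrpd2* it was -0.14, for *Snrpe* -0.03 and for *Snrpd1* 0.0016. The Sm proteins assemble as a ring with fixed partners, and the measured changes of their RNAs ranged from -1.13 on the log2 scale, in *Snrpf*, to 0.0016, in *Snrpd1*.

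*Snrpn*, a close paralog of *Snrpb* that the choice by symbol left out, had no call over all samples (-0.10 on the log2 scale, limma adjusted p = 0.720). It was at 56.1 ± 4.32 CPM in *GFP*-NSPC samples 1 to 4 and 36.5 ± 5.21 CPM in *Dbx2*-NSPC samples 1 to 4, and at 38.2 ± 3.03 and 51.6 ± 6.39 CPM in samples 5 to 8 (SD, n = 4 each). The direction thus turned between these sets, from -0.62 (limma adjusted p = 0.00863) to 0.42 (limma adjusted p = 0.0220), a difference of 1.04 (limma interaction term, adjusted p = 0.000363).

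Of the U1-specific genes, whose products recognise the splice donor site, none of 3 passed the test, with a median of -0.12. *Snrpa*, for an RNA-binding protein of the U1 snRNP, ran from 31.3 CPM through 42.9 to 52.1 CPM in *GFP*-NSPCs and from 28.3 CPM through 37.3 to 45.2 CPM in *Dbx2*-NSPCs. Every *Dbx2*-NSPC sample was below the *GFP*-NSPC sample of its number, but the ranges overlapped and the log2 fold change of -0.25 was not called (standard error 0.117, limma adjusted p = 0.169). *Snrpc* was at -0.12 and *Snrnp70* at -0.06 (-0.18 and -0.11 without *GFP*-NSPC sample 1).

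Of the 3 U1-associated genes, which act with the U1 snRNP early in assembly, 1 was called lower. *Prpf40b* ran from 29.0 CPM through 41.9 to 56.0 CPM in *GFP*-NSPCs and from 33.9 CPM through 43.6 to 57.0 CPM in *Dbx2*-NSPCs. These ranges overlapped almost entirely, and it was not called (0.09, standard error 0.149, limma adjusted p = 0.743). *Prpf39* had a log2 fold change of -0.00098.

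Of the U2-specific pair, *Snrpb2*, for an RNA-binding protein of the U2 snRNP, ran from 269 CPM through 286 to 327 CPM in *GFP*-NSPCs and from 218 CPM through 255 to 289 CPM in *Dbx2*-NSPCs. All *Dbx2*-NSPC samples but number 5 were below the lowest *GFP*-NSPC sample. It fell by 0.22 on the log2 scale (standard error 0.0700, limma adjusted p = 0.0399), the smallest called change, and its call was lost under 7 of the 16 other settings tried, edgeR among them. *Snrpa1*, for its partner in the U2 snRNP, was at -0.20 (limma adjusted p = 0.287).

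SF3a, a trimer that joins the U2 snRNP, had 2 of 3 members lower and the lowest median of all particles (-0.35). *Sf3a2* (chromosome 10, 80798198 to 80804924) ran from 36.3 CPM through 53.3 to 61.3 CPM in *GFP*-NSPCs and from 19.1 CPM through 27.3 to 34.5 CPM in *Dbx2*-NSPCs, without overlap. Samples 1 and 8 were the lowest of the *GFP*-NSPCs. The log2 fold change was -0.95 (standard error 0.143, limma adjusted p = 0.000126), to 51.7% of the level in *GFP*-NSPCs.

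*Sf3a3* (chromosome 4) ran from 43.4 CPM through 50.4 to 59.5 CPM in *GFP*-NSPCs and from 27.3 CPM through 40.6 to 45.2 CPM in *Dbx2*-NSPCs. *Dbx2*-NSPC sample 4 lay well below the other *Dbx2*-NSPC samples, which reached into the *GFP*-NSPC range, and 6 of the 8 were below the lowest *GFP*-NSPC sample. Its log2 fold change was -0.35 (standard error 0.106, limma adjusted p = 0.0284). It was at -0.20 and not called with neighbours subtracted (limma adjusted p = 0.290). *Sf3a1* was not called (-0.11).

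SF3b, which holds the branch site adenosine, had 2 of 6 members lower, and all 6 log2 fold changes over the 16 samples were negative (median -0.12), though in samples 1 to 4 alone *Sf3b3* was at 0.10 and *Sf3b2* at 0.14, and in samples 5 to 8 alone *Sf3b6* was at 0.07. *Sf3b4*, whose product contacts the pre-mRNA beside the branch site, ran from 47.7 CPM through 54.3 to 56.8 CPM in *GFP*-NSPCs and from 32.3 CPM through 39.2 to 48.9 CPM in *Dbx2*-NSPCs. All *Dbx2*-NSPC samples but number 2 were below every *GFP*-NSPC sample. It fell by 0.45 on the log2 scale (standard error 0.0923, limma adjusted p = 0.00207).

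*Sf3b5*, for a small SF3b protein (chromosome 10, 13005343 to 13009183), ran from 64.9 CPM through 82.8 to 104 CPM in *GFP*-NSPCs and from 34.5 CPM through 67.8 to 74.1 CPM in *Dbx2*-NSPCs. The groups overlapped: 5 of the 8 *Dbx2*-NSPC samples were above *GFP*-NSPC sample 1. It fell by 0.47 on the log2 scale (standard error 0.145, limma adjusted p = 0.0313). With neighbours subtracted it was at -0.24 and not called (limma adjusted p = 0.194). *Sf3b1*, the large scaffold of the complex, was at -0.11 (limma adjusted p = 0.473), *Sf3b3* at -0.14, *Sf3b6* at -0.08 and *Sf3b2* at -0.0055.

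In the U6 LSm ring, 2 of 7 members fell and all 7 had a negative log2 fold change (median -0.25). *Lsm7* (chromosome 10, 80852821 to 80855209) ran from 96.3 CPM through 126 to 157 CPM in *GFP*-NSPCs and from 66.5 CPM through 78.7 to 102 CPM in *Dbx2*-NSPCs. *Dbx2*-NSPC sample 4 was the only one above the lowest *GFP*-NSPC value, that of sample 1. The log2 fold change was -0.63 (standard error 0.106, limma adjusted p = 0.000386).

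*Lsm4* (chromosome 8), a ring subunit shared by the nuclear and the cytoplasmic LSm complexes, ran from 154 CPM through 171 to 202 CPM in *GFP*-NSPCs and from 109 CPM through 138 to 153 CPM in *Dbx2*-NSPCs, without overlap. Its fold change was -0.32 on the log2 scale (standard error 0.0777, limma adjusted p = 0.00713). *Lsm2* was at -0.25 (limma adjusted p = 0.137, 0.0438 with the replicate block and 0.0968 with the sample set as a covariate). The remaining ring genes *Lsm3*, *Lsm5*, *Lsm6* and *Lsm8* lay between -0.28 and -0.15 and were not called.

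None of the 3 U4/U6 genes was called (median -0.07). *Prpf4*, whose product binds the paired U4 and U6 RNAs with *Prpf3*, ran from 68.6 CPM through 77.5 to 89.9 CPM in *GFP*-NSPCs and from 56.8 CPM through 66.5 to 78.9 CPM in *Dbx2*-NSPCs, which overlapped (-0.20, standard error 0.0879, limma adjusted p = 0.136). *Prpf31* was at -0.07, and *Prpf3* was at -0.06 (-0.16 without *GFP*-NSPC sample 1).

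Of the 4 U5 genes, *Snrnp40* (chromosome 4), for a WD-repeat protein of the U5 snRNP, fell. It ran from 51.0 CPM through 60.4 to 66.7 CPM in *GFP*-NSPCs and from 36.3 CPM through 46.3 to 49.2 CPM in *Dbx2*-NSPCs. The groups did not overlap, and *GFP*-NSPC samples 1 to 4 were all above *GFP*-NSPC samples 5 to 8. Its log2 fold change was -0.46 (standard error 0.0912, limma adjusted p = 0.00163). *Prpf8*, at the catalytic centre of the spliceosome, was at -0.24 (limma adjusted p = 0.231), and *Snrnp200*, the helicase that unwinds U4 from U6, at -0.07. *Prpf6*, which bridges the tri-snRNP, was at 0.17 (limma adjusted p = 0.204), higher in 7 of the 8 *Dbx2*-NSPC samples than in the *GFP*-NSPC sample of the same number.

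None of the 6 genes of the tri-snRNP and activation group was called (median -0.05), nor any of the 3 of the minor U11/U12 snRNP (median -0.02). *Prpf38a*, needed for activation of the assembled spliceosome, ran from 32.1 CPM through 34.7 to 41.4 CPM in *GFP*-NSPCs and from 27.0 CPM through 30.1 to 38.5 CPM in *Dbx2*-NSPCs (-0.21, standard error 0.0990, limma adjusted p = 0.156). Its paralog *Prpf38b* ran from 201 CPM through 261 to 339 CPM and from 214 CPM through 265 to 306 CPM (-0.00090, standard error 0.111, limma adjusted p = 0.997). Both pairs of ranges overlapped. *Snrnp48*, of the minor spliceosome that removes a rare class of introns, ran from 121 CPM through 134 to 151 CPM and from 119 CPM through 140 to 179 CPM (0.08, standard error 0.0849, limma adjusted p = 0.598). The other members, *Prpf18*, *Prpf19*, *Prpf4b*, *Snrnp27*, *Snrnp25* and *Snrnp35*, lay between -0.10 and 0.08.

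The U7 pair replaces part of the Sm ring in the particle that trims histone pre-mRNAs, and neither gene was called. *Lsm10* ran from 11.9 CPM through 20.8 to 25.4 CPM in *GFP*-NSPCs and from 19.9 CPM through 23.5 to 35.2 CPM in *Dbx2*-NSPCs. It was the member that was higher in *Dbx2*-NSPCs at every number, and its log2 fold change of 0.31 was not called (standard error 0.157, limma adjusted p = 0.192). *Lsm11* was at -0.38 (standard error 0.197, limma adjusted p = 0.215).

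Of the 4 cytoplasmic LSm genes, *Lsm14a* (chromosome 7), for a protein of the P bodies, where untranslated mRNA collects, fell. It ran from 51.5 CPM through 59.8 to 67.6 CPM in *GFP*-NSPCs and from 35.2 CPM through 47.4 to 53.4 CPM in *Dbx2*-NSPCs, with 6 of the 8 *Dbx2*-NSPC samples below every *GFP*-NSPC sample. Its log2 fold change was -0.36 (standard error 0.0959, limma adjusted p = 0.0148). *Lsm14b*, its paralog, ran from 63.2 CPM through 71.1 to 81.9 CPM and from 47.9 CPM through 61.7 to 74.3 CPM, which overlapped (-0.18, standard error 0.0965, limma adjusted p = 0.217). *Lsm1*, which marks the cytoplasmic LSm ring of mRNA decay, was at -0.35 (standard error 0.237) and *Lsm12* at -0.13, and neither was called.

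**Figure D2:**
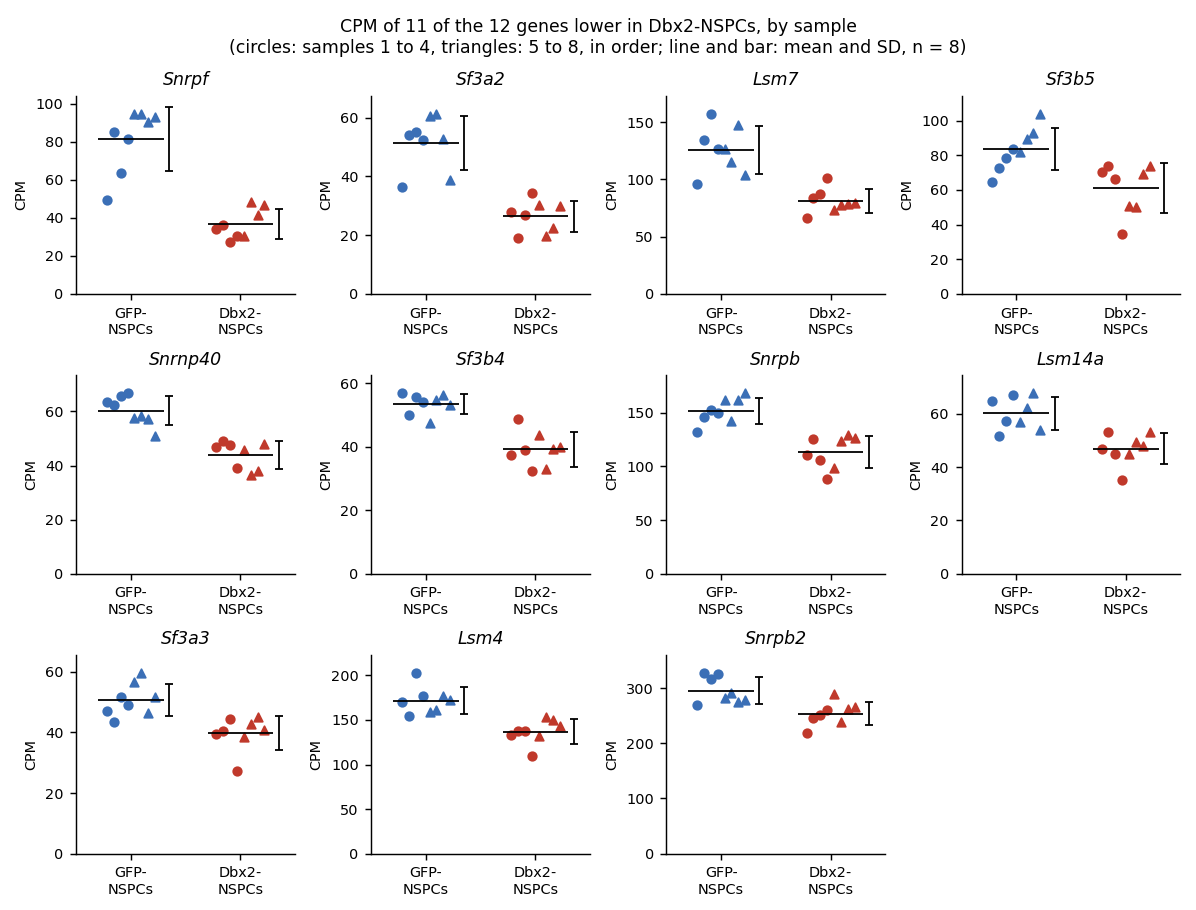
CPM of 11 of the 12 called members in each of the 16 samples (y axis from 0, in CPM), with samples in the order of their numbers, the mean as a line and the SD as a bar (n = 8 per group). *Snrpf*, *Sf3a2*, *Snrnp40*, *Snrpb* and *Lsm4* do not overlap between the groups, and *GFP*-NSPC sample 1 (first circle) is the lowest *GFP*-NSPC sample for *Snrpf*, *Sf3a2*, *Lsm7*, *Sf3b5*, *Snrpb* and *Snrpb2*.

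The level of the whole group was summarised in each sample by a score, the mean log2(CPM + 0.5) of the members less that of all tested genes, given as a description. It was 2.18 ± 0.0759 (SD, n = 8) in *GFP*-NSPCs. In *Dbx2*-NSPCs it was 1.96 ± 0.0709 (SD, n = 8), and the means differed by -0.22. *GFP*-NSPC sample 1 scored 1.9997, and the other *GFP*-NSPC samples 2.17 to 2.24. In *Dbx2*-NSPCs the score ran from 1.82, in sample 1, to 2.07, in sample 8. At every number the *Dbx2*-NSPC sample scored below the *GFP*-NSPC sample, though equal numbers are not shown to be pairs. The groups overlapped only through *GFP*-NSPC sample 1. Without that sample the difference was -0.24.

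The 41 members that were not called also scored lower, at 2.12 ± 0.0758 and 1.99 ± 0.0821 (SD, n = 8 each), a difference of -0.13, and 35 of their 41 log2 fold changes were negative. By particle, the score difference was largest for SF3a (-0.49), the Sm core (-0.35) and the U6 LSm ring (-0.31), followed by the cytoplasmic LSm genes (-0.27), SF3b and the U2-specific pair (-0.23 each). For the U2-specific pair it was -0.35 in samples 1 to 4 and -0.11 in samples 5 to 8. It was -0.17 for U5, and -0.22 and -0.11 in these sets. For SF3b it was -0.18 and -0.28 in them, for the U6 LSm ring -0.37 and -0.24, and for U4/U6 -0.09 and -0.17. For the U1-specific (-0.16), U4/U6 (-0.13), U1-associated, tri-snRNP and activation, U7 and U11/U12 genes it was smaller than the pooled SD of the samples' own scores, and it lay between -0.09 and -0.03 for the last 4 of these. For SF3a the scores of the *GFP*-NSPCs (1.36 to 1.87) and the *Dbx2*-NSPCs (0.98 to 1.26) did not overlap, as for no other particle. The 3 largest differences include members on chromosome 10, where 37.0% of the tested genes were called lower. Without those members the difference was -0.25 for SF3a, where the groups then overlapped, -0.19 for the Sm core, -0.25 for the U6 LSm ring and -0.17 for SF3b. That of the cytoplasmic LSm genes, none of them on chromosome 10, was then the largest.

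**Figure D3:**
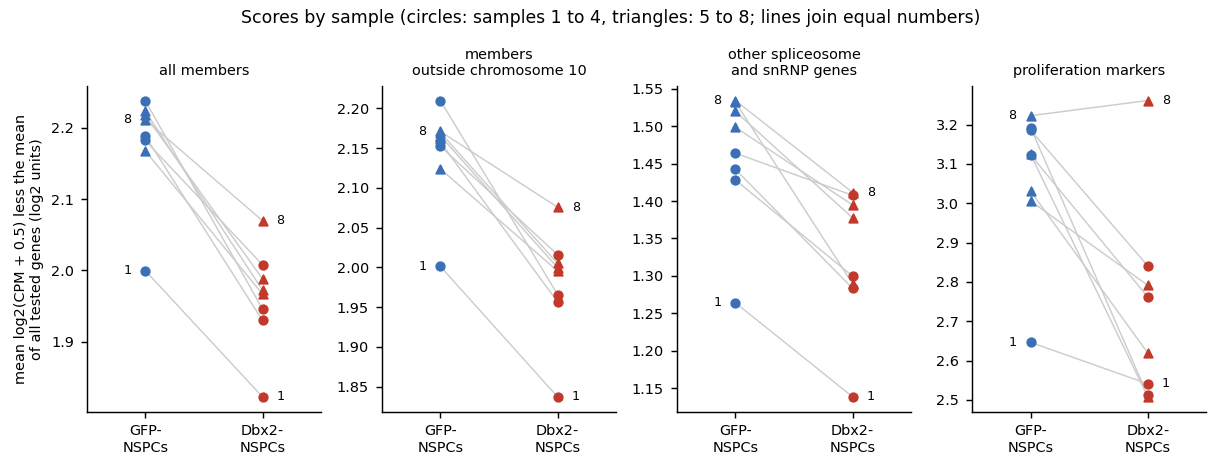
Score of each sample (y axis, log2 units, mean of the genes less the mean of all tested genes) for all 53 members, the 48 members outside chromosome 10, 80 other spliceosome and snRNP genes and 13 proliferation markers, with lines between samples of equal number. Sample 1 is lowest in both groups in the left 3 panels, and for all members the score of every *Dbx2*-NSPC sample is below that of its numbered *GFP*-NSPC sample.

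The members were then placed along the genome (GRCm38, GENCODE M21). The 5 members on chromosome 10, *Sf3b5*, *Snrpd3*, *Sf3a2*, *Lsm7* and *Snrpf*, included 4 of the 12 called genes, and 3 of these had the largest falls of any member. Their neighbours were lower as well: 37.0% of the 613 tested genes of chromosome 10 were called lower, beside 6.28% of the 11920 tested elsewhere, and the median log2 fold change of the chromosome was -0.37. On the other 19 chromosomes the median lay between -0.09 and 0.09.

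The median of the 50 nearest tested neighbours was -0.57 around *Snrpf*, -0.53 around *Sf3a2* and *Lsm7*, -0.34 around *Sf3b5* and -0.23 around *Snrpd3*. For the 48 members on other chromosomes it lay between -0.10 and 0.24, and for the 8 called among them between -0.08 and 0.06. Outside chromosome 10, 8 of 48 members (16.7%) were called lower, beside the 6.28% of all tested genes there, and 42 of 48 log2 fold changes were negative (median -0.13, beside -0.01 for all tested genes there). The score of these 48 members was 2.14 ± 0.0624 and 1.98 ± 0.0686 (SD, n = 8 each). Whether the shift of the chromosome sets the fall of the 4 called members on it was not tested, and in these RNA data a difference in copy number between the lines and a difference in transcription along the chromosome cannot be told apart.

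In a setting added after the data were seen, the median log2 level of its 50 neighbours in the same sample was subtracted from each gene. It called 9 members lower, beside 5.90% of all genes. The change of that median level can differ from the median of the neighbours' log2 fold changes given above, so the setting does not remove exactly that shift. *Sf3a3* moved from -0.35 to -0.20 and *Prpf8* from -0.24 to -0.50, while their neighbours' median log2 fold changes were -0.06 and 0.04. *Snrpf* stayed called (-0.55, limma adjusted p = 0.00490). *Sf3a2* (-0.36, limma adjusted p = 0.0971) and *Sf3b5* (-0.24, limma adjusted p = 0.194) lost the call, and *Lsm7* turned to 0.18 (limma adjusted p = 0.250). *Snrpb*, *Sf3b4*, *Lsm4*, *Snrnp40* and *Lsm14a* kept the call, *Sf3a3* (-0.20, limma adjusted p = 0.290) and *Snrpb2* (-0.21, limma adjusted p = 0.101) lost it, and *Snrpe* (-0.46, limma adjusted p = 0.0364), *Prpf8* and *Prpf38a* gained it.

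**Figure D4:**
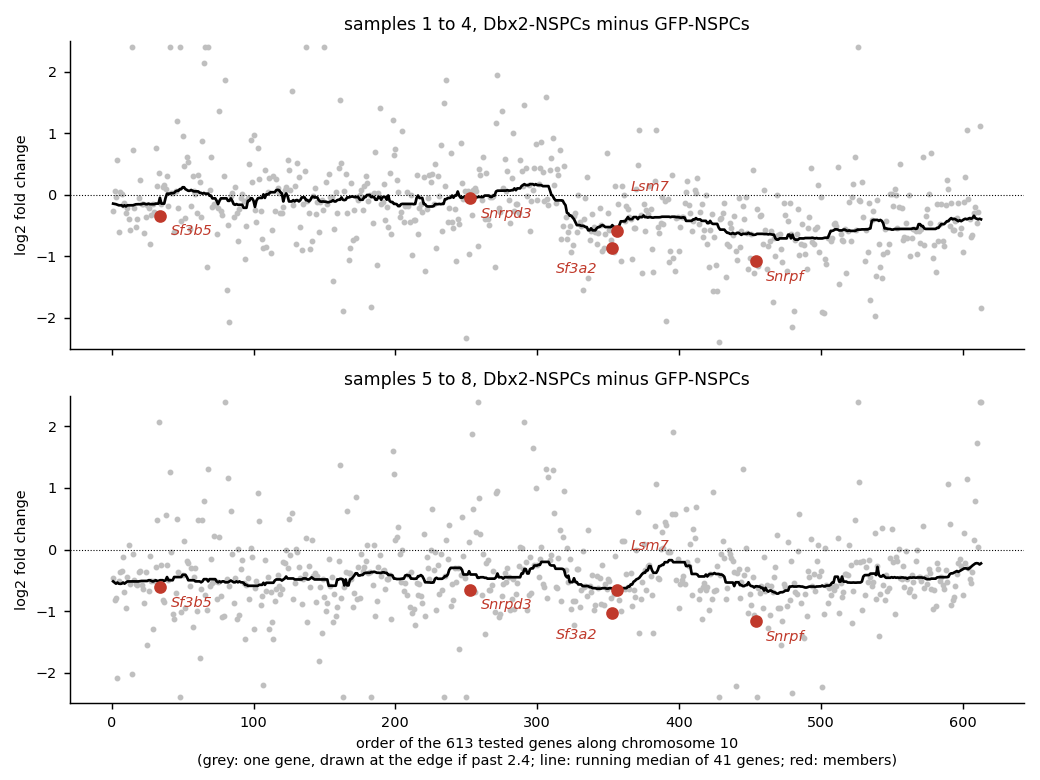
Log2 fold change of the 613 tested genes of chromosome 10 (y axis) in their order along it (x axis), in samples 1 to 4 (top) and samples 5 to 8 (bottom), with a running median of 41 genes and the 5 members in red. In samples 1 to 4 the running median steps down shortly before *Sf3a2*, with medians of -0.09 before the start of that gene and -0.54 from it on, and in samples 5 to 8 it is below 0 along the whole chromosome.

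Samples 1 to 4 and samples 5 to 8 differed in this. In samples 1 to 4 the median log2 fold change was -0.09 over the 352 tested genes before *Sf3a2* and -0.54 over the 261 from its start on. In samples 5 to 8 it was -0.48 and -0.47. *Snrpd3*, which lies before *Sf3a2*, was at -0.05 in samples 1 to 4 (limma adjusted p = 0.899) and -0.65 in samples 5 to 8 (limma adjusted p = 0.00260), while *Snrpf* was at -1.08 and -1.17. The difference of -0.60 for *Snrpd3* was not called (limma interaction term, adjusted p = 0.127).

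Each set of samples, 4 against 4, was also fitted alone. In samples 1 to 4, 8 members were called lower, beside 7.37% of all tested genes, and in samples 5 to 8 it was 11, beside 11.7%. Of the 53 members, 45 had a negative log2 fold change in samples 1 to 4, 41 in samples 5 to 8 and 37 in both. All 12 called members had a negative log2 fold change in both sets, and 6 of them passed the test in both (*Snrpf*, *Snrpb*, *Sf3a2*, *Sf3b4*, *Lsm7* and *Snrnp40*). The 12 were called over these same 16 samples, so a negative sign in both sets was likely from the start and is no separate support. *Lsm14a* passed in neither (limma adjusted p = 0.0757 and 0.0689). The median over the members was -0.21 in samples 1 to 4 and -0.15 in samples 5 to 8, beside -0.04 and -0.01 over all tested genes, and the score differences were -0.23 and -0.21. The *Dbx2* fold changes in the same sets were 0.54 and 1.99, and a relation between the changes of *Dbx2* and of the members was not tested. Whether those *Dbx2* values include transgene transcripts is not known.

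No member's change differed between the sets by the limma interaction test (0 of 53, beside 9.44% of all tested genes, and 5 at an unadjusted p under 0.05). The lowest adjusted p was that of *Snrnp27* (0.0582), at -0.22 in samples 1 to 4 and 0.16 in samples 5 to 8. Without *GFP*-NSPC sample 1 this test called *Snrnp27* and *Lsm6*.

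**Figure D5:**
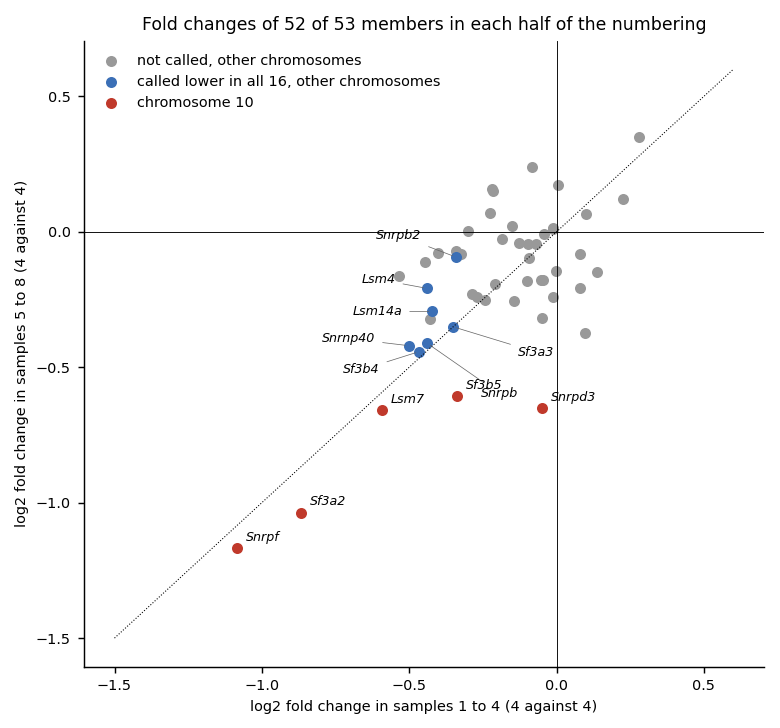
Log2 fold change of 52 of the 53 members in samples 1 to 4 (x axis) against samples 5 to 8 (y axis), with equality dotted. The 11 called members drawn, which were called over these same samples, lie below 0 on both axes. *Snrpf* and *Sf3a2* lie farthest from 0, and *Snrpd3* is at -0.05 and -0.65.

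Genes of the same pathway that the choice by symbol leaves out were taken from 7 lists of splicing factors, snRNP assembly factors and LSm partners. Of 80 tested, 2 were called lower (2.5%, beside 7.78% of all tested genes) and 0 higher. They were *U2af1*, whose product reads the splice acceptor (-0.38, standard error 0.121, limma adjusted p = 0.0408), and *Cdc40*, a factor of the later catalytic step that lies on chromosome 10 (-0.51, standard error 0.171, limma adjusted p = 0.0480). *U2af1* ran from 92.3 CPM through 123 to 143 CPM in *GFP*-NSPCs and from 65.8 CPM through 93.6 to 126 CPM in *Dbx2*-NSPCs, and *Cdc40* from 44.0 CPM through 63.3 to 85.7 CPM and from 28.2 CPM through 43.8 to 55.1 CPM. Both pairs of ranges overlapped. At an unadjusted p under 0.05, 23 of the 80 passed, 22 of them lower, beside 15.1% of all tested genes lower.

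The median log2 fold change of these 80 genes was -0.14 and 61 of them were negative, beside -0.15 and 47 of 53 for the members. The count of 2 changed with the fit. It was 7 with the replicate block, beside 10.9% of all tested genes called lower, and 7 without *GFP*-NSPC sample 1, beside 9.00%. It was 0 in samples 1 to 4 alone, beside 7.37%, and 8 in samples 5 to 8, beside 11.7%. By list, the median was -0.12 for 11 other U2 and branch site genes, -0.09 for 13 other U4/U6.U5 genes, -0.13 for 22 genes of the Prp19 complex and later steps and -0.07 for 9 other U1 and U11/U12 genes. It was -0.16 for the 16 genes of snRNP assembly and -0.17 for the 8 LSm decapping partners, all 8 of which were negative, and none of these was called. *Slbp*, the tested gene of 2 U7 partners, was at -0.17.

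Some marker genes of other lists were also called. All 13 proliferation markers had a negative log2 fold change (median -0.27), and *Mcm7*, *Ccna2*, *Mcm4* and *Ccnb1* were called lower, all of them genes of DNA replication or of the cyclins. Their sum, in which *Top2a* was the most abundant, ran from 2336 CPM through 3443 to 3631 CPM in *GFP*-NSPCs and from 2212 CPM through 2766 to 4070 CPM in *Dbx2*-NSPCs. *GFP*-NSPC sample 1 had the lowest proliferation score of its group (2.65, others 3.01 to 3.22), as it had for the snRNP genes, and *Dbx2*-NSPC sample 8 the highest of its group for both. The part of these markers in the change of the snRNP genes was not tested.

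The 3 ependymal markers, led by *Foxj1*, summed to 10.3 to 25.8 CPM in *GFP*-NSPCs and 21.9 to 44.9 CPM in *Dbx2*-NSPCs, with *Ccdc153* and *Rarres2* called higher and *Foxj1* (0.56) called with the replicate block (limma adjusted p = 0.0307) but not without it (0.104). Of the 3 mature astrocyte markers, led by *Aldh1l1*, the sum was 153 to 387 CPM and 97.2 to 215 CPM, with *Aldh1l1* called lower and *Gfap* higher. Of the 8 neural stem/progenitor markers, 4 were called lower. The 5 neuron markers, led by *Tubb3*, had no call and summed to at most 41.5 CPM. The part of these lists in the change of the members was not tested either.

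Some members overlap other genes, and the strand used in counting is not given in the sources used here. Exons of *Snrpf* overlap *Ccdc38*, those of *Sf3a2* overlap *Plekhj1*, those of *Snrpd3* overlap *Gucd1* and those of *Sf3b4* and *Lsm14a* overlap antisense genes, in each case on the opposite strand. So do those of *Sf3b3* with *Cog4*, *Prpf39* with *Fkbp3*, *Snrpa* with *BC024978*, and *Prpf31*, *Prpf4b* and *Sf3b2* with noncoding genes. Reads of these pairs cannot be told apart here if strand was not used. On the same strand, where strand cannot separate them, *Snrpa1* overlaps *Gm45213*, *Lsm3* overlaps *AC161456.1* and *Sf3b3* overlaps the snoRNA genes *Snord111* and *Gm22193*. Some members also share sequence with other annotated genes, counted as the share of distinct 50-base stretches in the last 400 bases of their transcripts. It was 35.5% for *Snrpc*, 29.6% for *Lsm5*, 22.3% for *Lsm7*, 18.5% for *Lsm12*, 18.1% for *Snrpg*, 16.4% for *Snrpa*, 11.5% for *Snrpe* and 10.7% for *Sf3b4*, and under 10% for the other members. The genes that share it with these 8 had no row or were at 0, except for *Snrpg*, whose sharing genes summed to a mean of 3.63 CPM. For *Snrpa1* (6.9%, shared with 31 genes) and *Snrnp200* (2.7%, shared with 39 genes) the sharing genes summed to 1114 and 2494 CPM. The levels of all these members are uncertain to the extent that reads were split between copies.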

How the data were processed

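The authors trimmed the reads with bbduk after FastQC 0.11.8, aligned them with STAR 2.5.0a to GRCm38 with Ensembl annotation and deposited CPM per gene, scaled to the total of each library; the counting tool is not given in the sources used here. All 16 columns of values were used and 0 left out. Whole reads were recovered from the CPM (100.0% of values above 0, within 0.05 of a read) for edgeR and DESeq2.

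Samples were grouped by transgene. The filter kept 12533 genes, those above 1 CPM in 4 samples or more, and they were tested with limma 3.58.1 in R 4.3.3 (lmFit, eBayes with trend, 2-sided) on log2(CPM + 0.5), which understates the change of low genes, with Benjamini-Hochberg adjustment over all of them. The cell line covariate of the study's methods is not in the labels and was not fitted. A score sets the mean log2 value of a list against that of every tested gene, by subtraction. The members, particles, lists, sample sets and tests were chosen with earlier results of these data known. Named were, per particle, up to 3 called members in order of adjusted p or else the member with the smallest p, any member called in the difference between sample sets, paralog pairs, *Snrpn*, *Dbx2*, and up to 3 called genes of each other list. Outside that rule, and chosen after their values were seen, are *Ccnb1*, *Slc1a3* and genes given as not called. Of the called members, 1 is counted but not reported by name or drawn.

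The replicate numbers in the titles were checked for pairing: deviations from the group means correlated by 0.152 to 0.303 between samples of equal number, over all tested genes, so a replicate block was fitted. Between other numbers of the same set the mean was 0.199, and with the set means removed the same-number mean was 0.0403. Alternatives were pseudocounts of 0.1 and 2, other filters and scalings, eBayes without trend, the block, the sample set as a covariate, each set alone, *GFP*-NSPC sample 1 left out, edgeR 4.0.16 and DESeq2 1.42.0, and, added after the data were seen, subtraction of 50 neighbours and chromosome 10 left out, also from the particle scores. The tests were checked on simulated data, and the outcome is not given here. Positions are from GENCODE M21 and promoters from RefSeq. Tables and plots were made with Python 3.11.15, pandas 2.3.3 and matplotlib 3.10.9.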

Additional observations from a re-analysis of the deposited data

Results flagged for a closer look

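In 152 groups of 8 values, 18 had a lowest or highest sample set apart from the others by a gap above Dixon's limit, where chance gives about 1 in 20. Of these, 8 were scores in *GFP*-NSPCs in which sample 1 was lowest: 1.9997 for all members (others 2.17 to 2.24), 2.19 for the called members (others 2.35 to 2.45), 1.94 for those not called (others 2.10 to 2.18), 2.0012 for those outside chromosome 10 (others 2.12 to 2.21), 2.64 for the Sm core (others 2.97 to 3.24), 2.05 for U5 (others 2.17 to 2.26), 2.65 for the proliferation markers (others 3.01 to 3.22) and 1.26 for the other spliceosome and snRNP genes (others 1.43 to 1.53). These lists share genes, so the 8 are not independent. *Lsm3*, of the U6 ring, was also lowest in that sample, at 114 CPM (others 138 to 157 CPM).

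Among *Dbx2*-NSPCs, sample 4 was lowest for *Sf3a3* at 27.3 CPM (others 38.4 to 45.2 CPM), for *Lsm8* at 26.9 CPM (others 53.9 to 69.8 CPM) and for *Lsm14a* at 35.2 CPM (others 44.9 to 53.4 CPM), and highest for *Sf3b2* at 1020 CPM (others 743 to 874 CPM). Sample 1 was lowest for *Snrnp25* at 37.6 CPM (others 47.7 to 54.0 CPM) and for the score of the other spliceosome and snRNP genes at 1.14 (others 1.28 to 1.41), and highest for *Dbx2* at 232 CPM (others 114 to 168 CPM). Sample 2 was highest for *Lsm12* at 60.4 CPM (others 41.5 to 49.3 CPM), and sample 8 for the proliferation score at 3.26 (others 2.51 to 2.84).

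The fold change differed between samples 5 to 8 and samples 1 to 4 for *Snrpn*, by 1.04 on the log2 scale (limma interaction term, adjusted p = 0.000363), and for *Dbx2*, by 1.45 (limma interaction term, adjusted p = 0.000104).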

How the results depend on the processing

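The count of 12 members called lower was 8 to 14 under the 16 alternatives, with 0 called higher under each. With the block, each set alone, *GFP*-NSPC sample 1 left out, edgeR, DESeq2 or neighbours subtracted, 5.90% to 11.7% of all tested genes were called lower. For the other alternatives that share is not given, so their counts of members and of other spliceosome genes cannot be set against all genes. The score difference kept its sign under all alternatives that gave one (-0.24 to -0.17, and -0.16 for the members outside chromosome 10 set against all tested genes). *Snrpf*, *Snrpb*, *Sf3b4* and *Snrnp40* were called lower under every alternative that tested them. *Snrpb2* lost the call without a filter, without trend, with either other scaling, with edgeR, in samples 5 to 8 and with neighbours subtracted. The replicate block, which pairs samples of equal number, gave 14 members (*Lsm2* and *Snrpg* gained) and 7 other spliceosome genes called lower, beside 10.9% of all tested genes (7.78% without it), gained *Sox2* and *Foxj1* too, and changed no other call of a gene named here or in the report. Of those other genes, 2 were called in the fit reported, and 0 without a filter, with quantile scaling, without trend or in samples 1 to 4, 1 with median-of-ratios scaling, with edgeR or without chromosome 10, 4 with neighbours subtracted, 5 with the sample set as a covariate, 7 without GFP_CTR replicate 1 and 8 in samples 5 to 8. With that covariate 3034 genes were called in all, against 1982. The test of a difference between sample sets called 1 member with quantile scaling and 2 without GFP_CTR replicate 1. Among the named members, *Snrpn* and *Dbx2*, signs turned for *Lsm7* with neighbours subtracted (0.18), for *Snrpn* in samples 5 to 8 (0.42), for *Snrnp48* in samples 1 to 4 (-0.085) and for *Prpf38b* with median-of-ratios (0.023) or quantile scaling (0.053), in samples 1 to 4 (0.080), with edgeR (0.016), DESeq2 (0.018) or neighbours subtracted (0.083). Of the other members, *Sf3b3*, *Sf3b2*, *Prpf3* and *Snrpd1* turned sign in samples 1 to 4 alone, and *Snrpe*, *Prpf39*, *Sf3b6*, *Lsm6*, *Snrnp200* and *Snrnp27* in samples 5 to 8 alone. With neighbours subtracted *Lsm8*, *Prpf18*, *Prpf3*, *Prpf39* and *Snrnp25* (0.35) turned, and over all members 7 turned with quantile scaling, 4 with edgeR, 4 with DESeq2, 3 with median-of-ratios scaling, 1 without GFP_CTR replicate 1 and 0 with the other alternatives. The particle median was -0.26 for SF3b in samples 5 to 8, and for U5 -0.28 in samples 1 to 4 and -0.029 in samples 5 to 8. In these sets it was -0.33 and -0.09 for the U2-specific pair, -0.07 and -0.18 for the U1-specific genes, -0.34 and -0.21 for the U6 ring and -0.10 and -0.19 for U4/U6. With members on chromosome 10 left out, the particle score difference was -0.25 for SF3a (-0.49 with them) and -0.19 for the Sm core (-0.35). Without GFP_CTR replicate 1, *Snrnp200* was at -0.10 (-0.07 with it), *Prpf18* at -0.12 (-0.07), *Snrnp25* at -0.07 (-0.02) and *Prpf4b* at 0.05 (0.08). *Snrpe* was then at -0.06 (-0.03), *Prpf38b* at -0.06 (-0.00090), *Sf3b2* at -0.04 (-0.0055) and *Prpf39* at -0.04 (-0.00098). The causes were not tested. The members of lowest level, such as *Lsm1* at a mean of 10.7 CPM, rest on the fewest reads, and the effect of depth on them was not tested.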

Other observations

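The neural stem/progenitor markers, which the report uses to check the cell type, had 7 of 8 log2 fold changes below 0 in *Dbx2*-NSPCs (median -0.41, beside -0.02 over all tested genes), and 4 were called lower. *Pax6*, a transcription factor of neural progenitors, ran from 35.5 CPM through 43.8 to 49.99 CPM in *GFP*-NSPCs and from 18.6 CPM through 26.6 to 30.6 CPM in *Dbx2*-NSPCs, without overlap (-0.74, standard error 0.119, limma adjusted p = 0.000250). *Egfr*, the epidermal growth factor receptor, fell by 0.45 (limma adjusted p = 0.00433), *Fabp7*, a lipid carrier of radial glia whose gene lies on chromosome 10, by 0.72 (limma adjusted p = 0.0149) and *Slc1a3*, a glial glutamate transporter, by 1.03 (limma adjusted p = 0.0259), on the log2 scale. *Nes* (-0.31, limma adjusted p = 0.270) and *Sox2* (-0.37, limma adjusted p = 0.181, and 0.000508 with the replicate block) were not called. *Vim* was at 0.04, also not called.

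The called astrocyte markers differed in direction. *Aldh1l1*, a folate enzyme of astrocytes, ran from 148 CPM through 242 to 355 CPM in *GFP*-NSPCs and from 68.6 CPM through 105 to 137 CPM in *Dbx2*-NSPCs, without overlap (-1.20, standard error 0.188, limma adjusted p = 0.000198). *Gfap*, an intermediate filament of astrocytes and of quiescent stem cells, ran from 0.82 CPM through 2.39 to 20.95 CPM and from 15.9 CPM through 43.0 to 70.7 CPM, which overlapped (3.31, standard error 0.554, limma adjusted p = 0.000354). The ependymal genes *Ccdc153* (1.75, limma adjusted p = 0.0102) and *Rarres2* (1.24, limma adjusted p = 0.0226) also rose, from medians of 1.41 and 2.09 CPM, close to the floor of 3 reads, to 6.16 and 5.26 CPM.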
